A study of Coprinopsis cinerea with 7 samples.

Results

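The interior of chromosome 10 of the ink cap mushroom Coprinopsis cinerea was described in 300 bp windows by how much DNA an antiserum against cytosine-5-methylenesulfonate (CMS) recovered there, relative to input DNA. Its members are the windows of chromosome 10 that start beyond position 20000 and stop at least 20000 bp before the largest stop of that chromosome. These are 7376 of the 120537 windows of the genome tables, from 20101 to 2232900, a stretch of 2212800 bp. The rule used positions only and no measured value. The labels describe genomic DNA of oidia, the asexual spores of this fungus, with no genotype, strain or treatment named and nothing that sets the groups apart other than the immunoprecipitation. The 2 groups are anti-CMS immunoprecipitates (IP), made as 5 libraries from 2 biological replicates (3 of the first and 2 of the second), and input DNA, with 1 library from each biological replicate. Each deposited table has 2 columns for IP and 2 for input, and in each group one carries the tag 1_1 and the other B_1. In the primary table the headers name IP and input, whereas in the multi-mapped table, a second count of the same windows, the IP columns are the 2 whose headers do not say input. The tags appear in no label, so p-values measure only the spread between these columns, which may be technical.

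5-Hydroxymethylcytosine is made from 5-methylcytosine by oxygenases of the TET/JBP family, of which this fungus encodes many copies. In CMS-seq, bisulfite turns 5-hydroxymethylcytosine into CMS. Fragments that carry CMS are captured with an antiserum, so that DNA with more of the base is recovered more often in IP than in input. In fungi, cytosine methylation is best known from transposons and other repeats, whose reads can be placed at more than 1 site. The authors deposited 2 count tables of the same windows, one of them named for multiple mapped and unique reads (called the multi-mapped table here), so results are given for both. Gene positions came from the RefSeq gene table of assembly CC3, which gives locus tags and gene types without product names, so no role can be given for the genes named here.

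Window counts of the primary table summed over the genome to 106176723 and 67181684 in the IP columns (1_1 first, then B_1) and 36059418 and 36233140 in the input columns. The interior of chromosome 10 held 5.58% and 5.56% of them in IP and 5.70% and 5.72% in input. The sums of the multi-mapped table were 24990768 and 19994333 in IP and 28735765 and 27600179 in input, with 6.59% and 6.77% in the chromosome 10 interior in IP and 6.54% and 6.53% in input. The number of counts per window differed between the tables in another way. The highest window of the interior held 10327 and 9972 counts in IP and 1302 and 1068 in input in the primary table, and 1037 and 1009 in IP and 1071 and 1038 in input among the multi-mapped counts. Over the genome the maxima were 156436 and 162928 in IP and 42227 and 44853 in input by the primary counts. By the multi-mapped counts they were 1070 and 1035 in IP and 1071 and 1053 in input. The multi-mapped counts are thus not the primary counts with further reads added, and why they are lower was not tested. Over the interior's windows the IP columns had a chi-square per degree of freedom of 8.87 and the inputs of 1.81 by the primary counts, so both pairs differed by more than counting error. By the multi-mapped counts the values were 1.89 for IP and 0.901 for input, where the inputs differed by less than the sampling noise. They were kept as 2 columns because they differed in the primary table.

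Anti-CMS enrichment over input was found at 613 of the 7207 tested windows of the chromosome 10 interior (8.51%), beside 8.75% of all tested windows of the genome and 8.28% in the interiors of the other 12 chromosomes. The median enriched window was 1.54-fold higher in IP. At least 2-fold enrichment was seen at 133 windows (1.85%, against 1.8% genome-wide) and at least 4-fold at 49 windows (0.680%, against 0.632%). IP B_1 lay above IP 1_1 in 78.8% of the enriched windows. A call is a Benjamini-Hochberg adjusted p under 0.05 over all windows of the genome in edgeR's quasi-likelihood test of TMM-scaled counts, and fold changes are IP over input. The count was 1025 when IP 1_1 was left out, 338 when input 1_1 was and 277 when input B_1 was. Scaling by library totals gave a median log2 fold change of -0.16 over all windows (-0.01 under TMM) and of -0.16 in the chromosome 10 interior (-0.02 under TMM), with 386 windows higher and 464 lower (45.4% of the calls higher, against 91.2% with TMM).

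By the multi-mapped counts 511 of 7376 windows were higher in IP (6.93%, against 7.0% genome-wide), with a median of 1.36-fold. Of these, 23 windows were at least 2-fold higher (0.312%, against 0.438% genome-wide) and 0 at least 4-fold (0.00415% genome-wide, which is 5 windows). The 2 tables shared 402 enriched windows, which are 65.6% of those called in the primary and 78.7% of those called in the multi-mapped table. All 613 windows enriched in the primary table also had a positive log2 fold change in the multi-mapped table. For the shared windows the median log2 fold change was 0.72 by the primary and 0.46 by the multi-mapped counts. At the authors' own adjusted p under 0.05, their deposited table of the primary counts called 231 of 7349 windows of this interior higher in IP and 0 lower. All 231 were among the 613, and 3917 windows were called higher genome-wide. Their deposited multi-mapped table called 282 of 7376 higher and 0 lower, beside 3864 higher genome-wide. Of the 282, 172 were called there here. The interior holds 6.12% of all windows.

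Among the called windows the highest fold lay at chr10:963301-963600, outside any gene model. It held 6859 and 7551 counts in IP and 142 and 151 in input, and its log2 fold change was 4.59 ± 0.27 (SE; edgeR adjusted p 2.48e-07). The window beside it, at 963601, held 5463 and 6117 counts in IP and 127 and 144 in input. In both windows each IP column lay far above each input column. The pair at chr10:1197001-1197600 also lay outside genes. Its first window held 7018 and 5120 counts in IP and 182 and 142 in input, a log2 fold change of 4.13 ± 0.19 (SE), and its second window had 3.94 ± 0.18. The highest counts of the interior fell in the gene CC1G_09103, at chr10:1044601-1044900, with 10327 and 9972 in IP and 368 and 435 in input (log2 fold change 3.61 ± 0.24, SE), and the next window of that gene reached 3.38. The remaining windows among the 10 highest were at 889501 and 889801 (log2 fold changes of 3.35 and 3.08, outside genes) and at 308401 and 308701, at and in the gene CC1G_01565 (3.25 and 3.12). These 10 windows were called in both tables and kept their call under each alternative tried.

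The same 10 windows were less far apart in the multi-mapped table. The window at 963301 held 233 and 215 counts in IP and 151 and 154 in input there, a log2 fold change of 0.96 ± 0.10 (SE). At chr10:889501-889800 the counts were 558 and 546 in IP and 259 and 243 in input, and its log2 fold change of 1.56 was the highest of the 10 in that table. Across the 49 windows with at least 4-fold enrichment in the primary table, the median fold was 5.53 by the primary and 1.90 by the multi-mapped counts, and 47 of them were called there too. They formed 24 separate runs, and IP B_1 exceeded IP 1_1 in 48 of the 49 windows. Of the 49, 23 had their midpoint in a gene, beside 60.4% of all tested windows of the interior.

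Enriched windows were gathered into regions, which are called windows merged across gaps of at most 1 window, with at least 3 called. The interior held 75 such regions by the primary and 62 by the multi-mapped counts. These are 6.34% and 6.14% of the 1183 and 1009 regions of the whole genome, close to the 6.12% of windows that lie in the interior. The 75 regions contained 501 of the 613 enriched windows (81.7%), and 53 enriched windows had no called window directly beside them. The regions were 900 to 8100 bp long, with a median of 1500 bp and a total of 161400 bp (7.29% of the interior). Their summed counts were 1.31-fold to 18.3-fold higher in IP, with a median of 1.61-fold, and 23 were at least 2-fold higher. In each of the 75 both IP columns lay above both inputs in CPM (counts per 1000000 counts of the TMM-scaled library total), and in 68 IP B_1 lay above IP 1_1. The regions were merged from windows called higher in these same columns, so their separation is a description and no further support. By the multi-mapped counts the same 75 were 1.18-fold to 2.02-fold higher, with a median of 1.34-fold. Of the primary regions 54 (72.0%) overlapped a region of the multi-mapped table, and 57 of the multi-mapped regions (91.9%) overlapped a primary one. A total of 21 regions (28.0%) touched no gene model. Without input 1_1 there were 42 regions and without input B_1 34.

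The region of highest mean window fold, chr10:963001-963900, had 137 and 242 CPM in IP and 10.2 and 10.5 CPM in input, and it was the only enriched region of its 50 kb bin. The multi-mapped table gave 22.8 and 27.3 CPM in IP and 13.7 and 14.2 CPM in input for it, 1.79-fold. Next by that measure, chr10:2096701-2097900 had 78.4 and 102 CPM in IP and 18.5 and 16.5 CPM in input (5.17-fold) and touched the gene model CC1G_10848. At chr10:1195501-1197600, outside genes, the values were 209 and 238 CPM in IP and 33.5 and 28.8 CPM in input (7.18-fold). IP and input did not overlap in any of these 3 regions, which was a condition for the regions ranked by mean window fold.

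Several of the sharpest regions overlapped gene models. The region at chr10:1806601-1807800, with 2 of its 4 windows centred in CC1G_02160, had 112 and 176 CPM in IP and 31.5 and 31.9 CPM in input (4.54-fold). That at chr10:141001-141900, with 2 of 3 windows centred in CC1G_01512, had 144 and 223 CPM in IP and 41.4 and 40.9 CPM in input (4.46-fold). At chr10:308101-310800, which touched CC1G_01564 and CC1G_01565, there were 188 and 250 CPM in IP and 45.4 and 41.4 CPM in input (5.04-fold). All 9 windows of that region were called from the primary counts and 8 from the multi-mapped ones. At chr10:1044301-1045800, where the midpoint of each window lay in CC1G_09102 or CC1G_09103, IP had 209 and 316 CPM and input 41.3 and 45.5 CPM (6.05-fold). In these 4 regions IP B_1 exceeded IP 1_1, and the lower IP column lay above both inputs, which their selection required.

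The other 3 of the 10 were at chr10:322801-323700 touching CC1G_01568 (3.28-fold), chr10:1303801-1305000 touching CC1G_09729 and the tRNA gene CC1G_20195 (3.92-fold) and chr10:495901-497400, away from genes (2.87-fold). The first of these had 42.9 and 62.5 CPM in IP and 16.5 and 15.7 CPM in input by the primary counts. The multi-mapped counts gave 27.8 and 34.0 CPM in IP and 15.8 and 14.8 CPM in input. Its 2.02-fold difference there was the largest of the 75 regions, while the primary fold of the 10 ran from 2.87 to 18.3.

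**Figure D1:**
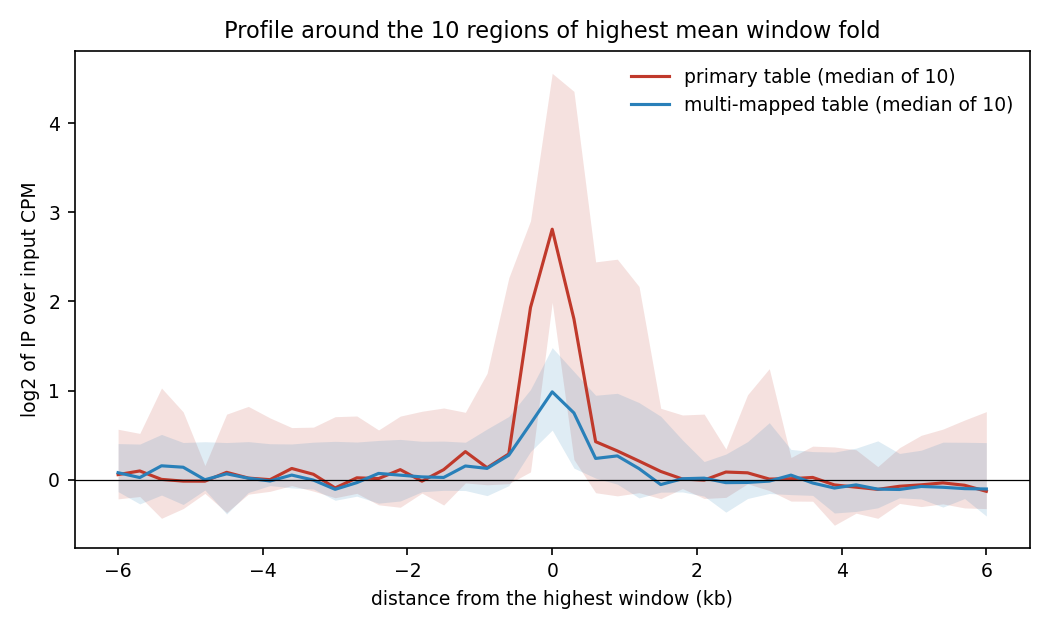
Log2 ratio of mean IP to mean input CPM (vertical axis, pseudocount of 0.1 CPM) by distance in kb from the highest window of each of the 10 regions of highest mean window fold (horizontal axis). Lines are medians of the 10 regions and shading is their lowest to highest value, in the primary (red) and the multi-mapped table (blue); the primary median is 2.81 at the centre, 0.43 at 600 bp to the right and within 0.32 of 0 beyond 900 bp on either side.

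Around their highest window the 10 sharpest regions were narrow, as the profile by distance shows. The median log2 ratio in the primary table was 2.81 at the highest window, 1.93 and 1.80 in the windows to its left and right, and 0.29 and 0.43 at 600 bp to either side. The median of the multi-mapped counts peaked at the same window with 0.99. The centre was chosen as the maximum, so its height is a description of these windows. At 1500 bp the medians were 0.11 to the left and 0.09 to the right. The regions varied, and the highest of the 10 still had a log2 ratio of 2.17 at 1200 bp to the right.

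The 10 longest regions were 1.42-fold to 3.35-fold higher in IP, a range that overlaps the 2.87-fold to 18.3-fold of the 10 above. The longest, chr10:1316101-1324200, spanned 8100 bp across CC1G_15312, CC1G_15313, CC1G_12835 and CC1G_15314, and 26 of its 27 windows were enriched. It had 409 and 469 CPM in IP and 277 and 267 CPM in input (1.61-fold), and 340 and 388 CPM in IP and 277 and 269 CPM in input in the multi-mapped table (1.33-fold). The 5400 bp at chr10:1527301-1532700, over CC1G_11720, CC1G_11721 and CC1G_11722, had 293 and 307 CPM in IP and 206 and 205 CPM in input (1.46-fold). At chr10:877201-882000, over CC1G_08713, CC1G_08714 and CC1G_08715, there were 287 and 298 CPM in IP and 210 and 203 CPM in input (1.42-fold). The IP columns of these 3 regions differed from each other by less than either did from the inputs.

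Of the 10 longest, 2 combined length with height. The region at chr10:1641901-1646700, over CC1G_02098, CC1G_02099 and CC1G_02100, had 339 and 446 CPM in IP and 138 and 138 CPM in input (2.85-fold), with a highest window at a log2 fold change of 2.61. The region at chr10:886201-890700, at CC1G_08715, CC1G_08716 and CC1G_15288, had 405 and 558 CPM in IP and 146 and 141 CPM in input (3.35-fold), and 200 and 240 CPM in IP and 135 and 130 CPM in input in the multi-mapped table (1.66-fold). In both, IP B_1 lay above IP 1_1. The remaining 5 of the 10 longest were chr10:2080501-2085300 at CC1G_12214 (1.46-fold), chr10:1309201-1313700 at CC1G_12832 (1.56-fold), chr10:1172701-1176900 at CC1G_13170 (1.77-fold), chr10:1354501-1358700 at CC1G_15316 and CC1G_11874 (1.55-fold) and chr10:2122501-2126400, which touched no gene (1.82-fold). All 15 windows of the region at 1309201 were enriched by the primary counts and 13 by the multi-mapped ones, although only 13.3% of them had their midpoint in a gene.

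**Figure D2:**
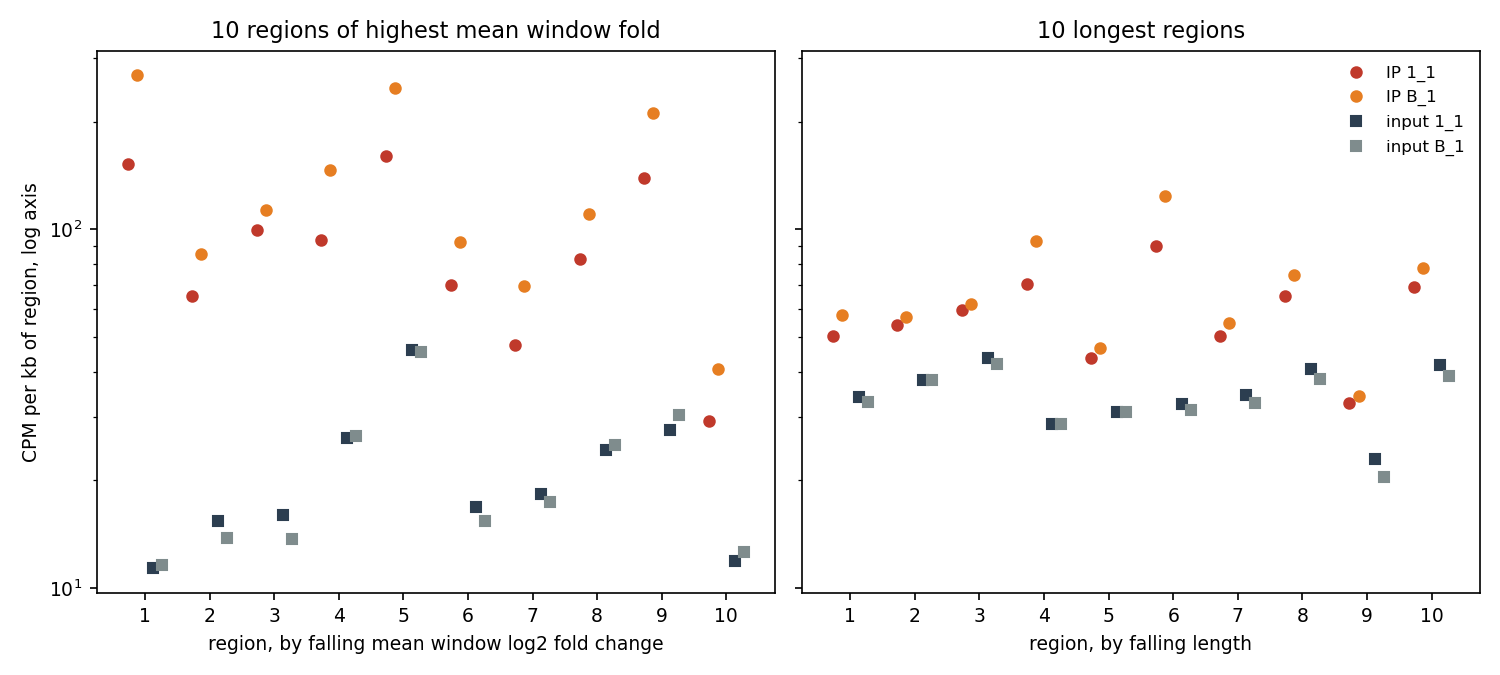
CPM per kb of region (TMM-scaled, log axis) in each IP column (red 1_1, orange B_1) and each input column (dark 1_1, grey B_1), for the 10 regions of highest mean window fold (left, 2.87-fold to 18.3-fold) and the 10 longest regions (right, 1.42-fold to 3.35-fold). Regions are ordered by mean window log2 fold change on the left and by length on the right. In all 20 both IP points lie above both input points, and in each IP B_1 is the higher IP point. That separation was a condition for the regions on the left. Those on the right were merged from windows called higher in these same columns.

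Along the chromosome the enrichment was uneven. Of the 43 whole 50 kb bins of the interior, 18 were higher in IP (41.9%, against 40.5% of all bins of the genome) and 6 lower (against 9.78% of all bins), by edgeR's quasi-likelihood test of bin sums. The 5 bins with the most enriched windows held 272 of them (44.4%), and 9 bins held 0. The bin of highest fold, chr10:1150201-1200000, had 948 and 1031 CPM in IP and 564 and 524 CPM in input, a log2 fold change of 0.86 ± 0.05 (SE; adjusted p 1.84e-05). Next came chr10:850201-900000 with 2205 and 2522 CPM in IP and 1573 and 1544 CPM in input (0.60 ± 0.07). The following 3 were chr10:1300201-1350000 (0.51 ± 0.05), chr10:2050201-2100000 (0.46 ± 0.05) and chr10:1600201-1650000 (0.37 ± 0.05). In all 5, chosen by their fold in these columns, both IP columns exceeded both inputs.

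**Figure D3:**
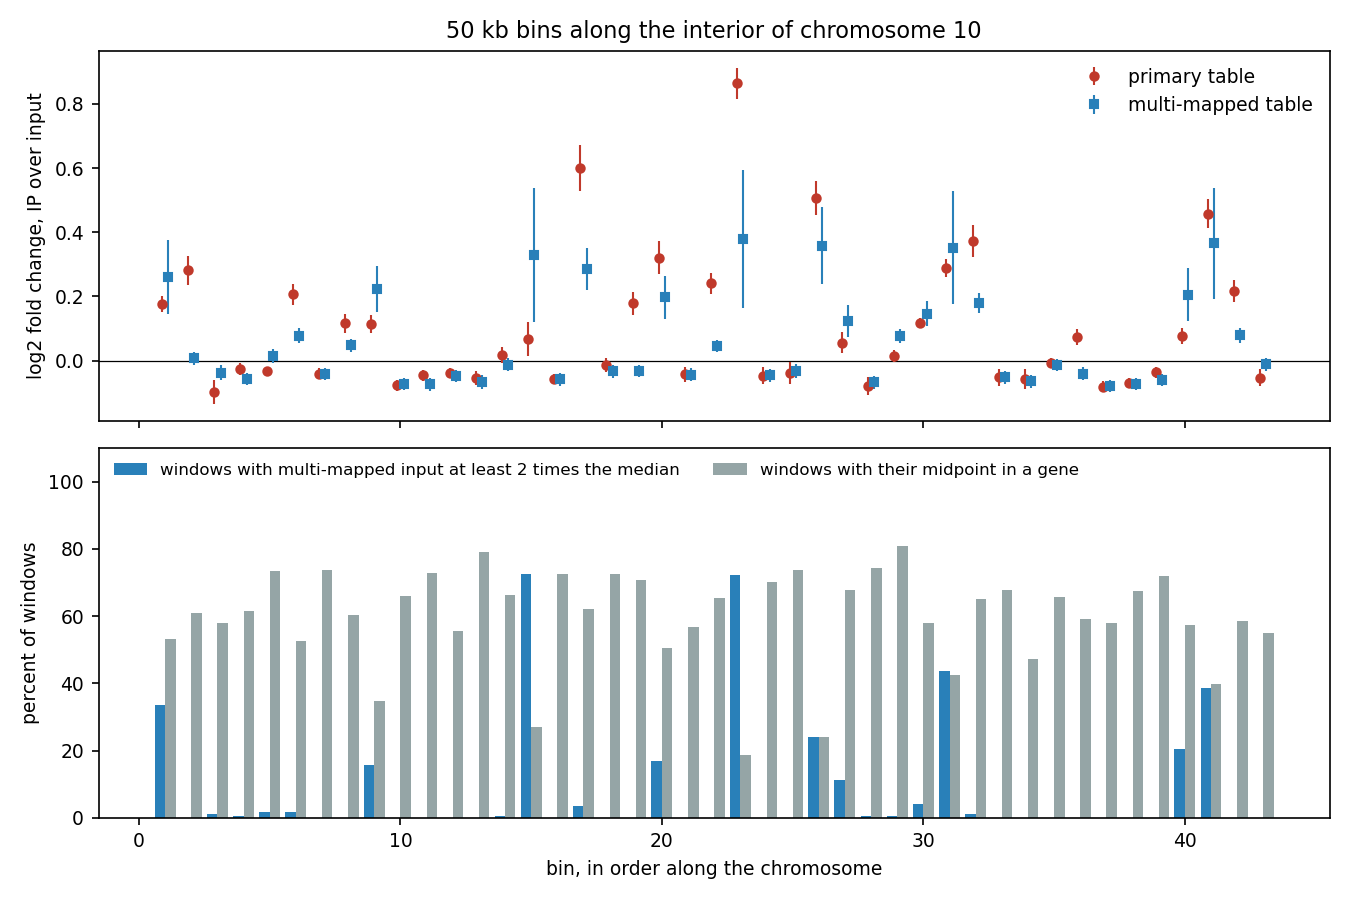
Upper panel: log2 fold change of IP over input with its SE for the 43 whole 50 kb bins of the chromosome 10 interior in order along the chromosome, in the primary (red circles) and the multi-mapped table (blue squares). Lower panel: percent of the windows of each bin with high multi-mapped input (blue) and with their midpoint in a gene (grey); the primary values run from -0.10 to 0.86, and the multi-mapped errors are widest in bins with many windows of high multi-mapped input.

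By the multi-mapped counts 14 bins were higher (32.6%, against 34.4% genome-wide) and 14 lower (32.6%, against 25.6%), and 12 bins were higher in both tables. Of the 5 highest bins, 3 were also called there. The bin at 1150201 had a log2 fold change of 0.38 ± 0.21 (SE; adjusted p 0.108) and that at 2050201 one of 0.37 ± 0.17 (adjusted p 0.0556). In these bins 120 of 166 and 64 of 166 windows had high multi-mapped input, which means at least 2 times the median of the chromosome interiors. The lowest bins were close to 0 on the log2 scale. The lowest, chr10:150001-200100, had 1425 and 1355 CPM in IP and 1502 and 1473 CPM in input (log2 fold change -0.10 ± 0.04, SE; adjusted p 0.0589). The bins at 1850101, 1400101, 500101 and 1900201 were called lower, with log2 fold changes of -0.08, -0.08, -0.08 and -0.07. The number of lower bins was 10 without IP 1_1, 1 without input 1_1 and 0 without input B_1, and library totals gave 9 higher and 25 lower bins.

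Long stretches of the interior held no enriched window at all. The longest ran from 1843201 to 1978800, which is 135600 bp with 55 gene models and 452 tested windows. Its summed CPM was 3112 and 3093 in IP and 3235 and 3284 in input, and the multi-mapped table had 0 enriched windows there too. A second, from 497401 to 625500 (128100 bp, 48 gene models), began directly at the end of an enriched region and had 2953 and 2919 CPM in IP and 3053 and 3066 CPM in input, with 1 enriched window in the multi-mapped table. The next ran from 1646701 to 1750200 (103500 bp), directly after the enriched region over CC1G_02100. Its CPM was 2612 and 2531 in IP and 2714 and 2625 in input, with 0 enriched windows in the multi-mapped table. Of the tested windows of the longest stretch 8 were lower in IP.

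Counts were summed over the windows whose midpoint lies in a gene, and 760 genes lay wholly in the interior with at least 1 such window, of 791 on the chromosome. Anti-CMS recovery was higher in IP at 79 of them (10.4%, against 11.2% of all genes tested) and lower at 7 (0.921%, against 0.544%). In all 79 both IP columns lay above both inputs, the columns from which the genes were called. At least 2-fold enrichment was seen at 14 genes (1.84%, against 1.47% genome-wide). A total of 84 genes were higher by the multi-mapped counts (11.1%, against 11.1%) and 6 lower (0.789%, against 0.611%), 69 and 3 of them shared with the primary calls, and 0 reached 2-fold (31 genes, 0.234%, did so genome-wide). When IP 1_1 was left out 120 genes were higher and 80 lower, when IP B_1 was 33 were lower, and when input 1_1 was 1 was lower. With library totals 69 were higher and 87 lower.

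The gene of highest fold was CC1G_01565, with 234 and 313 CPM in IP and 59.1 and 52.9 CPM in input over its 9 windows, 7 of them enriched. Its log2 fold change was 2.29 ± 0.12 (SE; edgeR adjusted p 2.79e-06). Its multi-mapped counts came to 278 and 354 CPM in IP and 194 and 190 CPM in input, a log2 fold change of 0.71. CC1G_02160 had 87.2 and 138 CPM in IP and 23.5 and 23.3 CPM in input (log2 fold change 2.26 ± 0.18, SE). CC1G_01512 had 216 and 338 CPM in IP and 61.7 and 62.3 CPM in input (2.16 ± 0.17). CC1G_15243 had 272 and 302 CPM in IP and 76.6 and 53.5 CPM in input (2.14 ± 0.13). The highest genes were listed only if both IP columns lay above both inputs. In each of these 4 genes the lower IP column was more than 3 times the higher input column.

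Of the further named genes, CC1G_09103 had 379 and 550 CPM in IP and 134 and 143 CPM in input (log2 fold change 1.75), from 4 enriched windows of 11. CC1G_02100 had 172 and 237 CPM in IP and 77.3 and 74.4 CPM in input (1.43), and CC1G_11047 547 and 741 CPM in IP and 242 and 243 CPM in input (1.41), from 11 enriched windows of 16. CC1G_11208 had 58.8 and 77.4 CPM in IP and 29.7 and 24.5 CPM in input (1.33). Its multi-mapped counts were far higher, 444 and 576 CPM in IP and 326 and 321 CPM in input (0.65). CC1G_08716 (1.32), CC1G_09126 (1.26), CC1G_15357 (1.10), CC1G_11723 (1.09), CC1G_12172 (1.05) and CC1G_15248 (1.02) completed the 14 genes past 2-fold. In CC1G_11723 the primary table had 25.2 and 28.1 CPM in IP and 13.9 and 11.1 CPM in input, whereas its multi-mapped counts came to 327 and 407 CPM in IP and 250 and 241 CPM in input. The neighbouring gene CC1G_11724 had a log2 fold change of 0.82. CC1G_15327 (0.96), CC1G_01515 (0.87), CC1G_15234 (0.81), CC1G_12835 (0.79) and CC1G_13170 (0.75) were the other members of the 20 highest. All 20 were called in both tables.

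The 5 lowest genes past the threshold differed by much less. CC1G_02105 had 34.5 and 34.9 CPM in IP and 47.2 and 44.3 CPM in input (log2 fold change -0.40 ± 0.08, SE; adjusted p 0.00534). CC1G_02185 had -0.35, CC1G_15364 -0.32, CC1G_11190 -0.30 and CC1G_09404 -0.25. In each both IP columns lay below both inputs, the columns from which these genes were called lower. The calls of CC1G_02105, CC1G_11190 and CC1G_15364 were lost in the multi-mapped table (adjusted p 0.281, 0.127 and 0.174). Without input 1_1 the adjusted p was 0.0843 for CC1G_02105, 0.0852 for CC1G_02185, 0.251 for CC1G_09404 and 0.0527 for CC1G_15364. Without input B_1 it was 0.411 for CC1G_02185 and 0.0609 for CC1G_09404.

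The tRNA genes, which encode the adaptor RNAs of translation, were the 1 list that the gene types allow. Chromosome 10 has 15 of them, and 5 hold a window midpoint in the interior. The tRNA gene CC1G_20195, which an enriched region named above touched, is not among these 5 and was not tested. None of the 5 was called in either direction (0 higher and 0 lower by edgeR), where 15.1% of the 86 tRNA genes tested across the genome were higher. Their log2 fold changes were 0.32 for CC1G_20190, 0.04 for CC1G_20191, 0.39 for CC1G_20192, 0.27 for CC1G_20197 and 0.30 for CC1G_20198. The median of the 5 was 0.30, beside 0.09 for all tRNA genes tested and -0.01 for all genes tested. CC1G_20190 had 16.4 and 15.9 CPM in IP and 12.9 and 12.9 CPM in input, and CC1G_20197 had 11.7 and 13.2 CPM in IP and 9.98 and 10.5 CPM in input. Each of the 5 is covered by a single window, and CC1G_20191 turned to -0.054 with library totals. CC1G_20190 was called without IP 1_1 (adjusted p 0.0482), without IP B_1 (0.0165) and with the column tag as a block (0.0474). CC1G_20192 was called without IP B_1 (0.00614) and CC1G_20197 without IP 1_1 (0.0207).

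A share of the interior had input counts that stood out in the multi-mapped table. Windows with at least 2 times the median multi-mapped input of the chromosome interiors made up 8.32% of the chromosome 10 interior, the third-highest share of the 13 chromosomes, against 4.59% in the other 12 interiors. They gathered in 13 blocks of at least 10 windows (gaps of at most 1 window), a definition chosen after these values were seen. The blocks covered 152700 bp (6.90% of the interior) and were 4200 to 30600 bp long, with a median of 9300 bp. The longest ran from 755401 to 786000. Gene models were sparse in them, with 10.6% of their windows centred in a gene, against 63.2% outside the blocks, and 7 of the 13 touched no gene. With thresholds of 1.5 and 3 times the median there were 20 and 11 blocks.

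Inside the blocks the tables differed most. In the multi-mapped table the median count per window was 715 and 688 in IP and 738 and 693 in input, so the 4 columns held nearly the same number of counts. Per block, the ratio of mean IP to mean input counts before scaling was 0.952 to 1.007. After TMM scaling the same counts became 1.28-fold to 1.35-fold higher in IP, and equal counts in all 4 columns would give 1.35-fold. Of the 509 block windows 19 (3.73%) were called higher there. In the primary table the median block window held 27 and 15 counts in IP and 10 and 6 in input. Of the 365 block windows that could be tested, 77 (21.1%) were higher in IP, against 7.83% of tested windows outside the blocks. Blocks of the other 12 interiors had higher shares, 43.0% within 5 windows of an edge and 29.4% further in, against 28.4% and 17.7% here. Block sums were 1.11-fold to 2.11-fold higher in IP, and in 12 of the 13 both IP columns lay above both inputs. No such count is given here for blocks of the other interiors.

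The block of highest primary fold, chr10:1152901-1162200, had 11422 and 8338 counts in IP and 2227 and 2159 in input in the primary table (2.11-fold after scaling). Its multi-mapped counts were 21483 and 20611 in IP and 22240 and 20803 in input. The longest block had 3273 and 2235 counts in IP and 1039 and 942 in input by the primary counts. It had 72041 and 68449 in IP and 75431 and 71833 in input by the multi-mapped ones, and 35 of its 102 windows could be tested. At chr10:1029301-1037700 the primary table held 269 and 217 counts in IP and 102 and 84 in input over 28 windows. That was the 1 block in which the IP and input columns were not fully apart after scaling. Whether the near-equal counts of the multi-mapped table reflect the DNA or the way reads were counted was not tested.

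**Figure D4:**
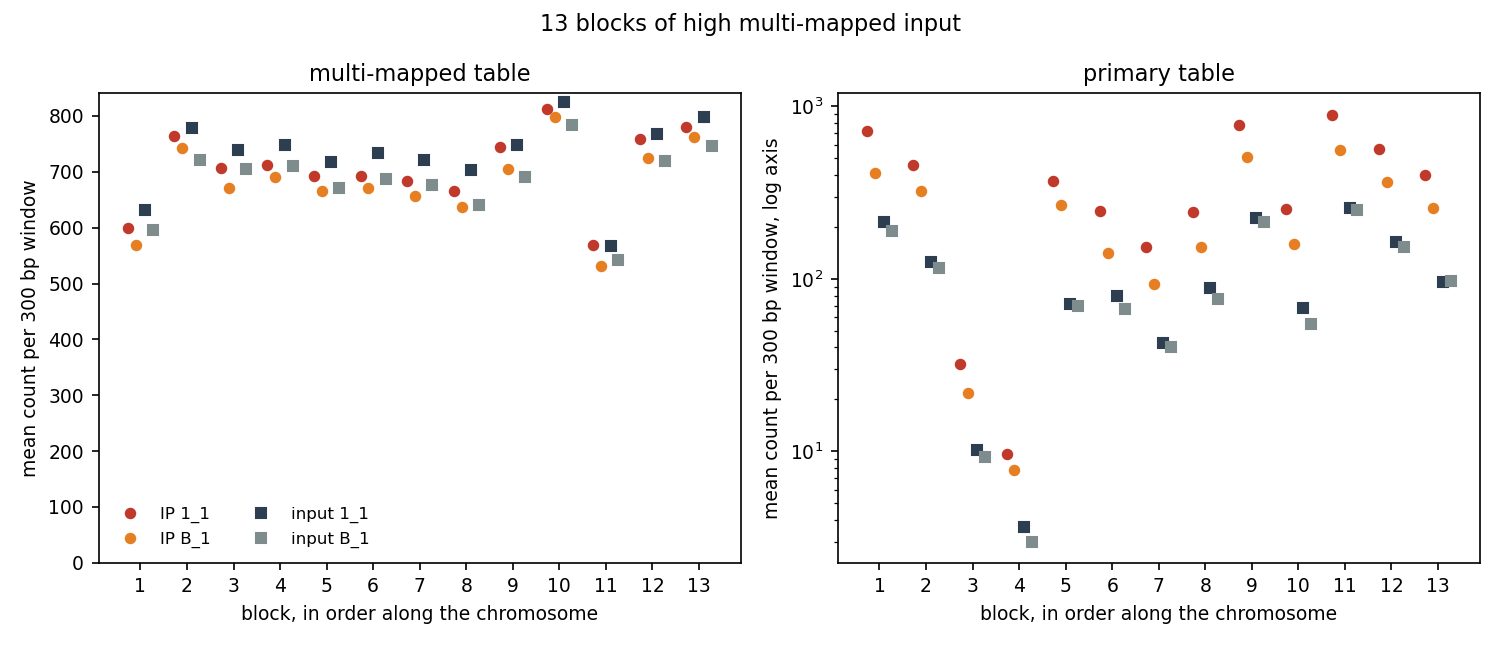
Mean count per 300 bp window (not scaled) in each of the 13 blocks of high multi-mapped input in order along the chromosome, in the multi-mapped (left, linear axis) and the primary table (right, log axis), with IP columns as circles and input columns as squares. On the left the 4 columns of a block lie close together, between 532 and 826, while on the right they spread from 3.00 to 894.

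Enriched windows were frequent beside the blocks. Within 1500 bp (5 windows) outside a block edge 54 of 107 tested windows were higher in IP (50.5%) by the primary counts and 61 of 112 (54.5%) by the multi-mapped ones. At 6 to 20 windows from an edge the shares were 29.5% and 25.1%, and beyond 20 windows 6.19% and 5.56%. Inside the blocks they were 28.4% and 10.8% within 5 windows of an edge and 17.7% and 1.32% further in. The interiors of the other 12 chromosomes, with 156 blocks, had 50.4%, 29.8% and 6.05% in the primary table at the same 3 distances outside, and 43.0% and 29.4% inside. Median multi-mapped input was 10.9 CPM within 5 windows outside an edge and 6.97 CPM beyond 20 windows, so input level moved with position too, and its part in these shares was not tested. Within 5 windows of an edge 4.31% of tested windows inside and 3.74% outside were at least 4-fold higher, against 0.589% beyond 20 windows outside. The other 12 interiors were alike, with 4.41%, 4.05% and 0.518%. Of the 49 most enriched windows (at least 4-fold) 9 lay within 5 windows of an edge on either side, as did 4 of their 24 runs and 3 of the 10 sharpest regions. These positions hold 3.28% of the interior's windows, a share of single windows that does not apply to runs or regions. The share beside the edges was 23.6% without input 1_1, 26.2% without input B_1 and 26.2% with library totals, and the share beyond 20 windows was then 3.72%, 2.96% and 4.15%.

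**Figure D5:**
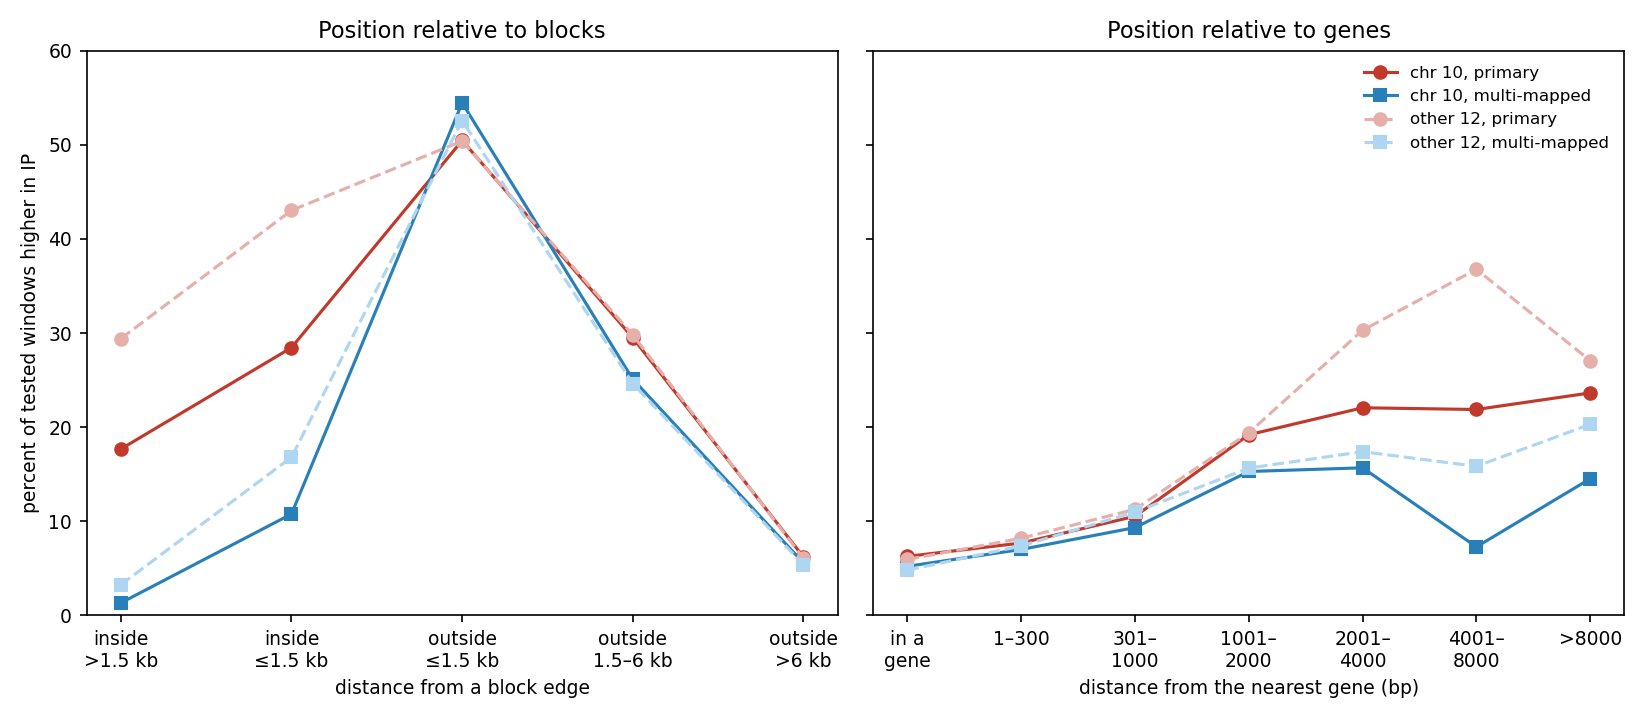
Percent of tested windows higher in IP by position relative to the blocks of high multi-mapped input (left) and by distance from the nearest gene model in bp (right), for the chromosome 10 interior (full colours) and the other 12 interiors (pale, dashed), in the primary (red circles) and the multi-mapped table (blue squares). On the left all 4 lines peak just outside the block edges, at 50.4% to 54.5%; on the right the chromosome 10 primary line goes from 6.27% in genes to 23.6% beyond 8000 bp.

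Enrichment was also more frequent away from genes. Of the tested windows outside gene models 340 of 2851 (11.9%) were higher in IP, against 273 of 4356 (6.27%) of those centred in a gene, a ratio of 1.90 (1.81 in the multi-mapped table, and 2.16 in the primary table for the other 12 interiors). By distance from the nearest gene model the share was 7.69% at 1 to 300 bp, 10.5% from there to 1000 bp, 19.2% up to 2000 bp, 22.1% up to 4000 bp and 21.9% up to 8000 bp. In the other 12 interiors the last of these classes had 36.8%. By the multi-mapped counts it was 7.27% on chromosome 10, lower than the 15.7% of the class before it. In that class 86.4% of the windows had high multi-mapped input, against 1.84% of windows in genes, and the part of this in the shares was not tested. The share outside genes was 20.3% and 18.2% when IP 1_1 or IP B_1 was left out, and 6.93% and 4.95% when input 1_1 or input B_1 was.

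Windows lower in IP were fewer than higher ones under TMM scaling, whereas library totals gave 464 lower and 386 higher. There were 59 by the primary counts (0.819%, against 0.64% genome-wide) and 56 by the multi-mapped ones (0.759%, against 0.816%), with 14 shared. Of the 59, 52 (88.1%) were centred in a gene, against 60.4% of all tested windows of the interior, and in the other 12 interiors the shares were 84.8% and 66.1%. Their median log2 fold change was -0.47 and the lowest -0.81. At least 2-fold lower were 0 windows by edgeR, 0 by DESeq2's Wald test and 0 when an unadjusted p under 0.05 was taken. They formed 7 regions of at least 2 called windows. The 5 lowest were 0.711-fold to 0.733-fold and lay at chr10:861901-862500 in CC1G_11046, chr10:1880401-1881000 in CC1G_02190, chr10:1423801-1424700 in CC1G_11190, chr10:599101-599700 at CC1G_01657 and chr10:2190901-2192100 in CC1G_15364. The one in CC1G_11190 had 30.7 and 26.3 CPM in IP and 41.1 and 39.1 CPM in input. The count of lower windows was 656 when IP 1_1 was left out, 369 when IP B_1 was, 4 when input 1_1 was and 13 when input B_1 was.

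Summed over the whole interior, chromosome 10 had 58122 and 58948 CPM in IP and 54566 and 54046 CPM in input. The log2 fold change was 0.11 ± 0.03 (SE; edgeR adjusted p 8.71e-05), the 10th highest of the 13 interiors, which ran from 0.06 to 0.25. An exact two-sided permutation test of the 4 columns gave p 0.333, the smallest that 2 against 2 columns allow. The multi-mapped sum was 66721 and 71024 CPM in IP and 63705 and 63213 CPM in input (log2 fold change 0.12 ± 0.03, SE), the third highest of the 13. Chromosome 10 also had the third-highest share of windows with high multi-mapped input (8.32%). Equal counts in all 4 multi-mapped columns would give 1.35-fold after TMM scaling, and the part of this in the sum was not tested. By the share of windows called, chromosome 10 was 8th of 13 in both tables. The direction of the sum rests on the scaling: with library totals the log2 fold change was -0.036 (adjusted p 0.00150), and without input B_1 it was 0.10 with an adjusted p of 0.0578.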

How the data were processed

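Anti-CMS IP and input DNA of oidia were compared in 300 bp windows. Per the labels, libraries were made with Illumina's Truseq DNA LT kit from DNA extracted with Qiagen's DNeasy Plant Mini kit, while Bismark 0.6.4, Bowtie 0.12.7 and edgeR are listed, with no role, in the submitters' processing notes. Not given in the sources used here are the genome build, read extension, duplicate handling and pooling of technical replicates. Whole-number counts per window were deposited in 2 tables and taken as raw because the column sums differ. Of the authors' own test, the deposited log2 fold changes (there input over IP) and adjusted p-values served only to count the authors' calls. Columns were assigned to IP or input by their headers. The multi-mapped IP columns do not name IP and were taken as such because they lack the word input and stand in the authors' first set, which holds the IP columns in the primary table. A total of 8 further per-sample columns, which repeat the counts as RPKM, were not used.

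Counts were tested with edgeR 4.0.16 (R 4.3.3) on the whole table: 2 IP against 2 input columns, TMM scaling, at least 10 counts in all, and a threshold of 0.05 on the Benjamini-Hochberg adjusted p. Bins and chromosome sums used the library sizes and TMM factors of the window fit. SEs came from the quasi-likelihood F statistic. Regions, blocks and profiles carry no test. The fits were tested on simulated counts, drawn independently with a common dispersion, and the pass check left out the chromosome sums. Fragments shared by neighbouring windows were not simulated. DESeq2 1.42.0, other scalings, filters, thresholds and left-out columns were alternatives. Values were summarised with numpy 2.4.6, pandas 2.3.3 and scipy 1.17.1, and drawn with matplotlib 3.10.9.

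The members and lists were chosen with earlier results of these data known. Named are the 10 longest regions, the 10 with the highest mean over their windows' log2 fold changes (every IP column above every input column), the 5 lowest regions that hold at least 2 lower windows, the 10 highest windows, the 5 highest and 5 lowest bins, the 20 highest called genes with at least 50 counts and both IP columns above both inputs, the 5 lowest called genes and the tRNA genes. Blocks, free stretches and runs of 4-fold windows were added after their values were seen. The gene table (CC3, 13657 genes, 791 on chromosome 10) was matched to the windows from the data: on chromosome 10 primary input counts correlated with gene cover best with no shift (r 0.237, against at most 0.0892 beyond 10 windows of shift, up to 300). Coordinates are those of the window tables, and 0 genes of chromosome 10 lay past their end. Lists by product name, CpG content and sequences were not analysed here, as no product names or genome sequence were used.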

Additional observations from a re-analysis of the deposited data

Results flagged for a closer look

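A group of 4 or more columns is needed to look for single columns that stand apart, and each group here had 2. There is 1 contrast, IP against input, in 1 kind of cell, so effects under it could not be set against those in another kind of sample. One result was found outside the main measurement. In the chromosome 10 interior, 169 windows had fewer than 10 counts in the primary table and entered none of its tests. Of these 169 windows, 10 were called higher in IP in the multi-mapped table. That share was not above the 6.93% of the whole interior, where the multi-mapped counts gave 511 higher windows of 7376. The multi-mapped input of the 169 windows, taken as the mean of the 2 input columns, had a median of 689 counts.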

How the results depend on the processing

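Directions held for the named windows, regions, bins and genes under each alternative run, other than CC1G_20191, which was -0.054 with library totals, and the summed count of the interior, which was -0.036 with library totals. Library totals gave 386 windows higher and 464 lower, 9 bins higher and 25 lower, 87 genes lower and 7.33% of windows outside genes higher. DESeq2's Wald test gave 16 windows lower and 9.54% of windows outside genes higher. An adjusted p under 0.01 left 345 windows higher, 2 lower and 46 regions, and a 2-fold minimum 133 windows and 14 genes higher, with 0 windows and 0 genes lower. The multi-mapped table gave 14 bins lower and 9.46% of windows outside genes higher, and bins of 100 kb gave 3 lower. Over the left-out columns there were 277 to 1025 windows higher and 4 to 656 lower, 34 to 87 regions, 70 to 120 genes higher and 1 to 80 lower, 12 to 19 bins higher and 0 to 10 lower, 4.95% to 20.3% of windows outside genes higher, and a summed log2 fold change of 0.10 to 0.12. Such fits take the spread from the remaining columns, and the lone column is assumed to vary like the others. The share of higher windows beside block edges ran from 23.6% to 69.2% over all alternatives.

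The tags 1_1 and B_1 are not tied to biological replicates by any label, so they do not pair the columns by design. Deviations of same-tagged columns correlated at 0.210 across windows by the primary and 0.0361 by the multi-mapped counts, over 2 pairs. With the tag as a replicate block there were 859 windows higher and 286 lower, 71 regions, 97 genes higher and 34 lower, 18 bins higher and 8 lower, 17.2% of windows outside genes higher and a summed log2 fold change of 0.11 (adjusted p 0.0388). In the multi-mapped table the block, added after seeing the data, gave 483 windows higher and 51 lower.

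Depth limits the blocks most, where the primary table held a median of 27 and 15 counts in IP and 10 and 6 in input per window. In the multi-mapped table no window of the interior exceeded 1037 counts in IP and 1071 in input. Filters on low counts were not run for bins, since the bins of the interior pass each of them.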

Other observations

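A few regions held more enriched windows by the multi-mapped than by the primary counts. At chr10:441601-449100, a stretch of 7500 bp that touched the gene model CC1G_15267, it had 332 and 352 CPM in IP and 269 and 250 CPM in input (1.32-fold, and 1.57-fold by the primary counts), with 23 of 25 windows enriched there and 22 in the primary table. The region at chr10:1484401-1488600, in CC1G_11208, had 213 and 275 CPM in IP and 137 and 135 CPM in input (1.79-fold). All 14 windows were enriched in the multi-mapped table, and 9 of the 12 that could be tested in the primary table. Over CC1G_11723 and CC1G_11724, at chr10:1535401-1539300, there were 211 and 259 CPM in IP and 163 and 157 CPM in input (1.47-fold). Of the 13 windows there 11 were enriched, against 4 of the 7 that could be tested in the primary table. These regions were chosen after their values were seen.

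The calls of the tables also split by input level. Windows with low primary input (under 0.5 times the median) and without high multi-mapped input were higher in IP at 41 of 507 tested windows (8.09%) by the primary counts and at 82 of 524 (15.6%) by the multi-mapped ones. The other 12 interiors had 6.20% and 12.2% in this class. Windows with high multi-mapped input and without low primary input were higher at 75 of 177 (42.4%) by the primary and 13 of 177 (7.34%) by the multi-mapped counts. For this second class the other 12 interiors had 50.4% and 12.4%, so the split was not particular to chromosome 10. In that class on chromosome 10 the median SE of the log2 fold change was 0.13 by the primary and 0.18 by the multi-mapped counts.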
